A study of Rattus norvegicus with 16 samples.

Results

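The genes described here are 10 transcripts that are commonly read as an output of Ras/ERK signaling, chosen by name from the 31038 genes of the deposited tables. They are the Sprouty genes Spry1, Spry2 and Spry4, the Spred genes Spred1 and Spred2, the MAP kinase phosphatases Dusp4 and Dusp6, and the ETS transcription factors Etv1, Etv4 and Etv5. All 10 were listed in each of the 16 libraries. The choice used no measured value of theirs, although earlier results of these data were known when it was made.

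RNA was sequenced from the sciatic nerve of rats, either from acutely purified Schwann cells or from whole nerve, with 2 libraries in each of 8 groups. Purified cells and whole nerve were each sampled uncrushed and 3, 5 and 7 days post-crush, and the crush was done at postnatal day 18. Each library came from a pool of at least 10 nerves, and crushed nerves contributed only the segment distal to the crush. Uncrushed nerves had no sham operation, so surgery and crush cannot be told apart, and the labels give postnatal day 18 as the age of every group, so time after crush and age at collection cannot be told apart either. No strain or transgene is named. Crushed rats had isoflurane anesthesia and carprofen for analgesia, so these drugs cannot be told apart from the crush either. Schwann cells were taken by enzymatic digestion, depletion of CD45 and Thy1 cells and selection for O4, whereas whole nerve went straight into RNA extraction. The labels give 2 samples of a group separate numbers and no separate preparation, so p-values measure the spread between pools.

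ERK, the last kinase of the cascade that runs from receptor tyrosine kinases through Ras, Raf and MEK, switches on genes that shut the cascade down again. Sprouty and Spred proteins act on the way from the receptor to Raf, Dusp6 removes phosphate from ERK in the cytoplasm and Dusp4 removes it in the nucleus. Etv1, Etv4 and Etv5, the PEA3 group of ETS factors, are induced by the same signal and carry it to further genes. In Schwann cells ERK activity is known both for its part in myelination and for driving the return to an immature state after injury.

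Depth was 10555067 to 27562637 expected counts per library. The Schwann cell markers Sox10, S100b, Erbb3, Ngfr, Gfap, Mbp and Mag were detected in every library, and they did not move as a group. FPKM (fragments scaled to transcript length and library size) of Sox10 was 59.1 to 95.5 in purified cells and 21.5 to 52.1 in whole nerve. The myelin gene Mbp went in purified cells from 1584 and 1736 FPKM uncrushed to 382 and 410 on day 3, while Ngfr, a receptor of immature and injured Schwann cells, went from 54.0 and 38.0 to 1132 and 1059. Macrophage markers summed to 2.45 to 12.5 FPKM in purified cells and 119 to 549 in whole nerve, and fibroblast markers to 241 to 575 against 3960 to 6005. Of the latter Col1a2 was listed at 0 to 293 FPKM in whole nerve, with 0 in both day 5 libraries, so that sum rests on the other 4 genes there. Endothelial markers summed to 0.60 to 4.09 FPKM in purified cells and 75.9 to 109 in whole nerve, with Pecam1 at 0 in both uncrushed purified libraries. Pericyte and smooth muscle markers summed to 38.3 to 51.2 FPKM in uncrushed purified cells, 8.59 to 18.4 in purified cells after crush and 243 to 364 in whole nerve. They were thus lower after crush in the same libraries as Spry1, Spry4 and Etv1, and their part in those changes was not tested. Perineurial markers summed to 19.9 to 20.5 FPKM in uncrushed purified cells and 12.1 to 17.8 in purified cells after crush. These markers were thus also lower after crush, and their part in the member changes was not tested. In whole nerve they summed to 120 to 186 uncrushed, 147 to 149 on day 3, 139 to 153 on day 5 and 196 to 241 on day 7. Fat and muscle markers, at 0.05 to 1.19 FPKM in purified cells, summed in whole nerve to 367 to 403 uncrushed, 202 to 265 on day 3, 425 to 619 on day 5 and 347 to 376 on day 7, beside the changes in whole nerve, and their part was not tested. In all 16 libraries immediate-early genes, which respond within minutes to serum, stress or tissue handling, stood apart between preparations. Their 16 genes summed to 5467 to 6262 FPKM in uncrushed purified Schwann cells, 1845 to 2343 in purified cells after crush, and 141 to 362 in whole nerve. This contrast runs beside every comparison that follows, and its part in them was not tested.

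Promoter sequence is shown for 3 genes because their transcripts made the largest moves in purified cells: Etv1 and Spry1 downward, Etv5 upward. The windows are the 250 bases before the start site in the RefSeq table of assembly GRCr8, which held 8 of the 10 genes (not Dusp4 and Etv4). All 3 lie on the plus strand. Capitals mark a CArG box, the element bound by serum response factor, in Etv1 at chr6:61317179-61317428. They mark GC boxes, GGGCGG on either strand, in Spry1 at chr2:122485097-122485346 and Etv5 at chr11:92113013-92113262. The Etv1 window also holds GC boxes, on the minus strand, which are left in lower case.
Etv1: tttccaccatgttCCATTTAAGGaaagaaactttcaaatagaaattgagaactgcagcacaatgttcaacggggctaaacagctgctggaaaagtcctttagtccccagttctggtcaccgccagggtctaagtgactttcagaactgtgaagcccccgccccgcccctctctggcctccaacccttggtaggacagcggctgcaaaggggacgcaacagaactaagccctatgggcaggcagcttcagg
Spry1: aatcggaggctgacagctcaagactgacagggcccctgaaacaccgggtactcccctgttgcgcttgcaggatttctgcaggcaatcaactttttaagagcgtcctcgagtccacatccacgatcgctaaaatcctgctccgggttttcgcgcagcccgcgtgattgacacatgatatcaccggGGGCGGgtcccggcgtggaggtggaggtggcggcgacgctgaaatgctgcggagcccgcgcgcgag
Etv5: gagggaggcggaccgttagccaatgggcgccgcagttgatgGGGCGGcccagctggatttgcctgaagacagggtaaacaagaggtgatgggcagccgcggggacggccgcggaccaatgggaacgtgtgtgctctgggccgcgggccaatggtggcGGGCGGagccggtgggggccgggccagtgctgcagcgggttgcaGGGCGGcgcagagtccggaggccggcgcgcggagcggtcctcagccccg

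The CArG box of Etv1 began 237 bases before the start site. Among 33469 RefSeq windows, 1.5% held a CArG box, and Etv1 was the 1 member of 8 that did. A GC box was present in 7 of the 8 member windows and in 30.5% of all windows. None of the 8 held the ETS core CCGGAAG (7.27% of all windows), the AP-1 element TGANTCA (6.34%) or the cyclic AMP element TGACGTCA (1.59%), on either strand. The motifs were chosen after the expression values were known, and a match is a run of letters, not a binding site.

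The members differed widely in level. In uncrushed Schwann cells Spry2 was highest at 83.5 and 68.8 FPKM in the 2 libraries, followed by Spred1 at 42.65 and 48.4, Etv1 at 40.1 and 39.8, Dusp6 at 21.3 and 24.2, and Spry1 at 13.3 and 10.5. Spred2 (4.85 and 5.39), Dusp4 (3.78 and 4.12), Spry4 (3.74 and 4.38), Etv5 (1.96 and 2.43) and Etv4 (0.24 and 0.45) made up the low end. Dusp4 and Spry4 overlapped in this order, and the other neighbours did not. In uncrushed whole nerve Spred1 led with 39.65 and 44.2 FPKM, Etv1 was next at 33.8 and 36.8, and Spry2 (18.5 and 16.15) overlapped Spry1 (18.1 and 16.9).

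Several Schwann cell members had traded places by day 3. Spry2 stood at 116 to 122 FPKM, while Etv1 (5.05 and 5.32) now lay below Dusp6 (11.48 and 12.14) and just above Dusp4 (3.12 and 5.04). Spry1 (1.89 and 2.48) had dropped below Etv5 (2.52 and 3.18). By day 7 Dusp4 (8.76 and 11.1) and Etv5 (7.32 and 7.61) both exceeded Spry1 (2.73 and 3.71). Etv4 never passed 0.45 FPKM in purified cells, where it drew 0 to 12 counts per library, and never passed 0.95 in whole nerve.

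Changes within a gene are given below in normalized CPM, counts scaled to library size (CPM) after TMM correction over all 16 libraries, because the deposited FPKM carries a shift of its own. The median gene had an FPKM 0.45 higher on the log2 scale in whole nerve on day 3 than in uncrushed whole nerve, against 0.07 in Schwann cells. Tests were run on the counts with edgeR's quasi-likelihood test, adjusted over all genes tested, and a gene is called at an adjusted p below 0.05.

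**Figure D1:**
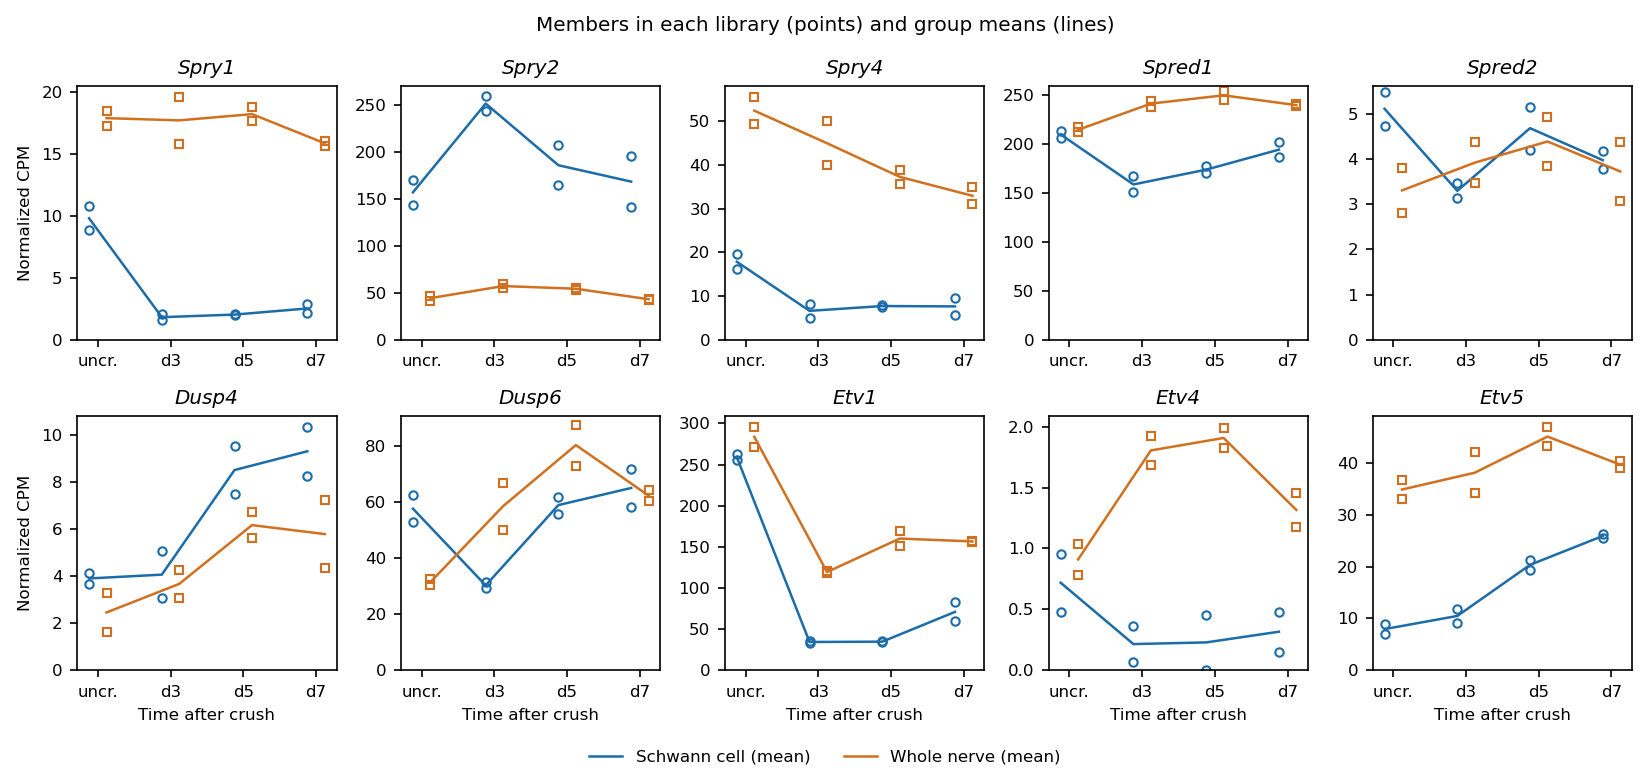
Normalized CPM (y axis, linear from 0, its own range in each panel) of the 10 members in every library, against time after crush (uncr., uncrushed; d3, d5 and d7, days). Circles are Schwann cell libraries, squares whole nerve libraries and lines join group means; the lines for Etv1 start close together, at 255 to 296 CPM, and part by day 3, with means of 34.2 in Schwann cells and 119 in whole nerve, while those for Dusp6 cross.

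On day 3 after crush, purified Schwann cells held less of several inhibitors and of Etv1, and more Spry2. Of 9 members tested, 6 were called, 5 of them lower (Spry1, Spry4, Spred1, Dusp6, Etv1) and 1 higher (Spry2). Among all 14961 genes tested 52.5% were called, and 25.7% were called lower. The median log2 fold change was -0.59 over the members and 0.00 over all genes.

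Among the Sprouty genes, Spry1, an inhibitor whose loss is known to raise growth factor responses, read 10.8 and 8.83 CPM in uncrushed Schwann cells and 1.57 and 2.08 on day 3. It was 5.17-fold lower (log2 -2.37 ± 0.28 SE, adjusted p = 7.1e-05, edgeR). Day 5 (1.96 and 2.10 CPM) and day 7 (2.92 and 2.13) lay at the same low level, log2 -2.24 ± 0.28 and -1.92 ± 0.27 from uncrushed. No library after crush came near an uncrushed one, although the counts behind the crushed values were only 25 to 57 per library.

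Spry4, a second inhibitor of the family, followed the same course from 16.1 and 19.6 CPM to 5.07 and 8.14 on day 3, 7.85 and 7.57 on day 5 and 5.74 and 9.51 on day 7. The log2 fold changes were -1.37 ± 0.27 (adjusted p = 0.00216), -1.18 ± 0.27 (0.00488) and -1.22 ± 0.28 (0.00544). The uncrushed libraries did not overlap with any crushed library.

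Spry2 moved the other way. From 171 and 143 CPM it rose to 244 and 260 on day 3, which was 1.64-fold higher (log2 0.72 ± 0.17, adjusted p = 0.00559). At day 5 its libraries read 164 and 207.5 and on day 7 141 and 196, overlapping the uncrushed pair, and neither day was called (log2 0.27 and 0.12). Between day 3 and day 7 Spry2 fell by 0.59 on the log2 scale (adjusted p = 0.0333), a call that did not hold without the first library of either day (adjusted p = 0.0952 and 0.218) or the second of day 3 (0.159).

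The Spred genes, whose proteins bring the Ras inhibitor neurofibromin to the membrane, were called against uncrushed only for Spred1 on day 3. Spred1 read 213 and 206 CPM in uncrushed cells, 167 and 150 on day 3, 177 and 170 on day 5 and 186 and 202 on day 7. Its fall on day 3 was 1.29-fold (log2 -0.37 ± 0.10, adjusted p = 0.00972). Without the second day 3 library the adjusted p was 0.114. On the FPKM scale the day 3 libraries (42.4 and 38.75) both lay just below the lower uncrushed library (42.65), a log2 ratio of -0.17. Spred1 also overlaps a pseudogene record, Eno1-ps25, and the library kit does not mark strand.

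Spred2, with 50 to 100 counts per library, read 4.75 and 5.49 CPM in uncrushed cells and 3.13 and 3.47 on day 3 without a call (log2 -0.59, 95% interval -1.12 to -0.06, adjusted p = 0.0608). At day 5 and day 7 its log2 differences were -0.10 and -0.34, and neither was called.

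The phosphatases behaved differently from each other. Dusp6, the cytoplasmic ERK phosphatase, read 52.8 and 62.4 CPM before injury and 29.1 and 31.3 on day 3, a 1.86-fold fall (log2 -0.89 ± 0.14, adjusted p = 0.000522). It was back at 61.9 and 55.8 on day 5 and 58.0 and 71.9 on day 7, inside or next to the uncrushed range and not called against it (log2 0.06 and 0.20). The rise from day 3 to day 5 was called (log2 0.95 ± 0.14, adjusted p = 0.00317).

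Dusp4, its nuclear relative, read 3.65 and 4.14 CPM uncrushed and 3.07 and 5.04 on day 3, with no call (log2 0.12, 95% interval -0.51 to 0.75). It then rose to 7.49 and 9.50 on day 5 and 8.24 and 10.3 on day 7. These were log2 1.15 ± 0.27 (adjusted p = 0.00567) and 1.28 ± 0.27 (0.00409) above uncrushed. Both late days lay above all 4 earlier libraries, on 136 to 167 counts per library.

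Of the Etv factors, Etv1 made the largest move of the 10. It read 255 and 263 CPM in uncrushed Schwann cells, 34.9 and 33.5 on day 3 and 33.95 and 35.2 on day 5. The day 3 fall was 7.41-fold (log2 -2.89 ± 0.15, adjusted p = 3.14e-07) and the day 5 fall 7.36-fold. At day 7 it read 82.4 and 59.25, higher than on day 5 (log2 1.03 ± 0.14, adjusted p = 0.01) but still 3.59-fold below uncrushed. The day 7 against day 5 call was lost without either day 5 library or the first day 7 library (log2 0.78 to 1.06, adjusted p = 0.0536 to 0.0947).

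Etv5 climbed instead. It read 6.95 and 8.91 CPM before injury, 9.21 and 11.75 on day 3 (log2 0.45, 95% interval 0.05 to 0.85, adjusted p = 0.0577), 21.3 and 19.45 on day 5 and 25.5 and 26.4 on day 7. Day 5 was 2.62-fold and day 7 3.33-fold above uncrushed (log2 1.39 ± 0.18 and 1.74 ± 0.18, adjusted p = 0.000133 and 4.34e-05). Etv1 and Etv5, of the same small family, therefore stood on opposite sides of their uncrushed level from day 5 on. Etv4 was too low to be tested in Schwann cells.

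At day 5, 5 of 9 members were called against uncrushed (54.6% of all genes) and on day 7 again 5 of 9 (46.9%), Spry1, Spry4 and Etv1 lower and Dusp4 and Etv5 higher on both days. From day 3 to day 5, Dusp4, Dusp6 and Etv5 rose, 3 of 9 against 12.5% of all genes. The Dusp4 step (log2 1.03) lost its call without 3 of the 4 libraries compared and the Etv5 step (log2 0.94) without 2 of them, whereas Dusp6 kept it. From day 5 to day 7 only Etv1 was called, against 1.95% of genes, and from day 3 to day 7 it was 5 of 9, against 21% of genes. Dusp4 was among the 5 (log2 1.15) and lost that call without the first day 3 or the second day 7 library (adjusted p = 0.0764 and 0.071).

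Whole nerve, where Schwann cells are mixed with fibroblasts, vessels and incoming macrophages, gave fewer calls on day 3 than purified cells. At that time 3 of 10 members were called (45.6% of 15831 genes), Spry2 and Dusp6 higher and Etv1 lower. At day 5 there were 4 of 10 (38.4%), and on day 7 4 of 10 (31.3%), on both days Dusp4 and Dusp6 higher and Spry4 and Etv1 lower. The share of members lay below that of all genes on day 3, near it on day 5 and somewhat above it on day 7, on 10 members. Of the calls only that of Dusp6 was not made in the same direction in Schwann cells on the same day. In such bulk samples fewer cells of a type and less RNA per cell cannot be told apart. Macrophage markers summed to 119 to 132 FPKM in uncrushed whole nerve, 525 to 549 on day 3 and 315 to 337 at days 5 and 7, while Mbp went from 5485 and 5871 FPKM to 273 and 253 on day 3 and Sox10 from 21.5 and 28.7 to 27.8 and 27.9. The part of either cell type in these changes was not tested.

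Etv1 fell in whole nerve as well, from 272 and 296 CPM to 118 and 120.5 on day 3, 151 and 169 on day 5 and 155.5 and 157.5 on day 7. The folds were 2.50, 1.90 and 1.93 (log2 -1.32 ± 0.09, -0.92 ± 0.09 and -0.95 ± 0.09). All 6 crushed libraries lay below both uncrushed ones.

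Dusp6 rose in whole nerve at each day. Its libraries read 32.4 and 30.35 CPM uncrushed, 50.1 and 66.8 on day 3, 87.6 and 72.9 on day 5 and 60.3 and 64.2 on day 7, with log2 fold changes of 0.83 ± 0.15, 1.25 ± 0.15 and 0.89 ± 0.15. All 6 crushed libraries lay above both uncrushed ones.

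Spry4 declined from 49.3 and 55.5 CPM to 38.8 and 35.7 on day 5 and 31.0 and 34.9 on day 7 (log2 -0.59 ± 0.13 and -0.76 ± 0.13, adjusted p = 0.0048 and 0.00136). Its FPKM ratios, which carry the shift of the median gene, were smaller at -0.18 and -0.35. The day 5 call was not made when all 16 libraries were fitted together (log2 -0.49, adjusted p = 0.0776). Spry2 showed 46.85 and 41.8 CPM uncrushed and 54.9 and 59.5 on day 3, a 1.23-fold rise (log2 0.30 ± 0.10, adjusted p = 0.0292). That call was lost with DESeq2 (0.0707), in the fit of all 16 libraries (0.0698) and without the second library of either group (0.164 and 0.178).

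Dusp4 in whole nerve went from 3.28 and 1.62 CPM to 5.62 and 6.70 on day 5 and 4.33 and 7.22 on day 7 (log2 1.19 ± 0.36 and 1.10 ± 0.37, adjusted p = 0.0259 and 0.0447). Both calls rest on 14 to 118 counts per library. Without the second uncrushed library the values were 0.82 and 0.73, with adjusted p = 0.133 and 0.203. The day 5 call was lost without either day 5 library and the day 7 call without the second day 7 library or with DESeq2 (adjusted p = 0.0528).

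No day after crush gave a call in whole nerve for 5 of the members: Spry1, Spred1, Spred2, Etv4 and Etv5. Spry1 stayed between 15.7 and 19.6 CPM in all 8 libraries, with log2 differences of -0.08, -0.07 and -0.27 from uncrushed, while its FPKM ratios were 0.32, 0.34 and 0.15, on the far side of 0. FPKM ratios on days 3, 5 and 7 were 0.61, 0.50 and 0.45 for Spred1 and 0.59, 0.72 and 0.49 for Spred2. For Etv4 they were 1.33, 1.39 and 0.85, and for Etv5 0.47, 0.68 and 0.50. The median gene read 0.45, 0.44 and 0.44 on that scale. Etv5 ranged from 33.1 to 47.1 CPM. Etv4 ranged from 0.78 to 1.99 CPM on 9 to 41 counts, with a log2 difference of 0.94 on day 3 (95% interval 0.05 to 1.83, adjusted p = 0.0804). Between the crushed days few steps were called: Etv1 was higher on day 5 than day 3 (1 of 10 members, 11.5% of genes), none differed from day 5 to day 7 (7.4% of genes), and Etv1 was higher and Spry2 and Spry4 lower on day 7 than on day 3 (3 of 10, 21.2% of genes). These steps were small (log2 0.40 and 0.37 for Etv1, -0.43 for Spry2, -0.47 for Spry4). The day 5 Etv1 step lost its call without 3 of the 4 libraries compared (adjusted p = 0.123 to 0.175), and each of the day 7 steps lost it without at least 1 of the first day 3, the second day 3 and the first day 7 library (0.0507 to 0.212).

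**Figure D2:**
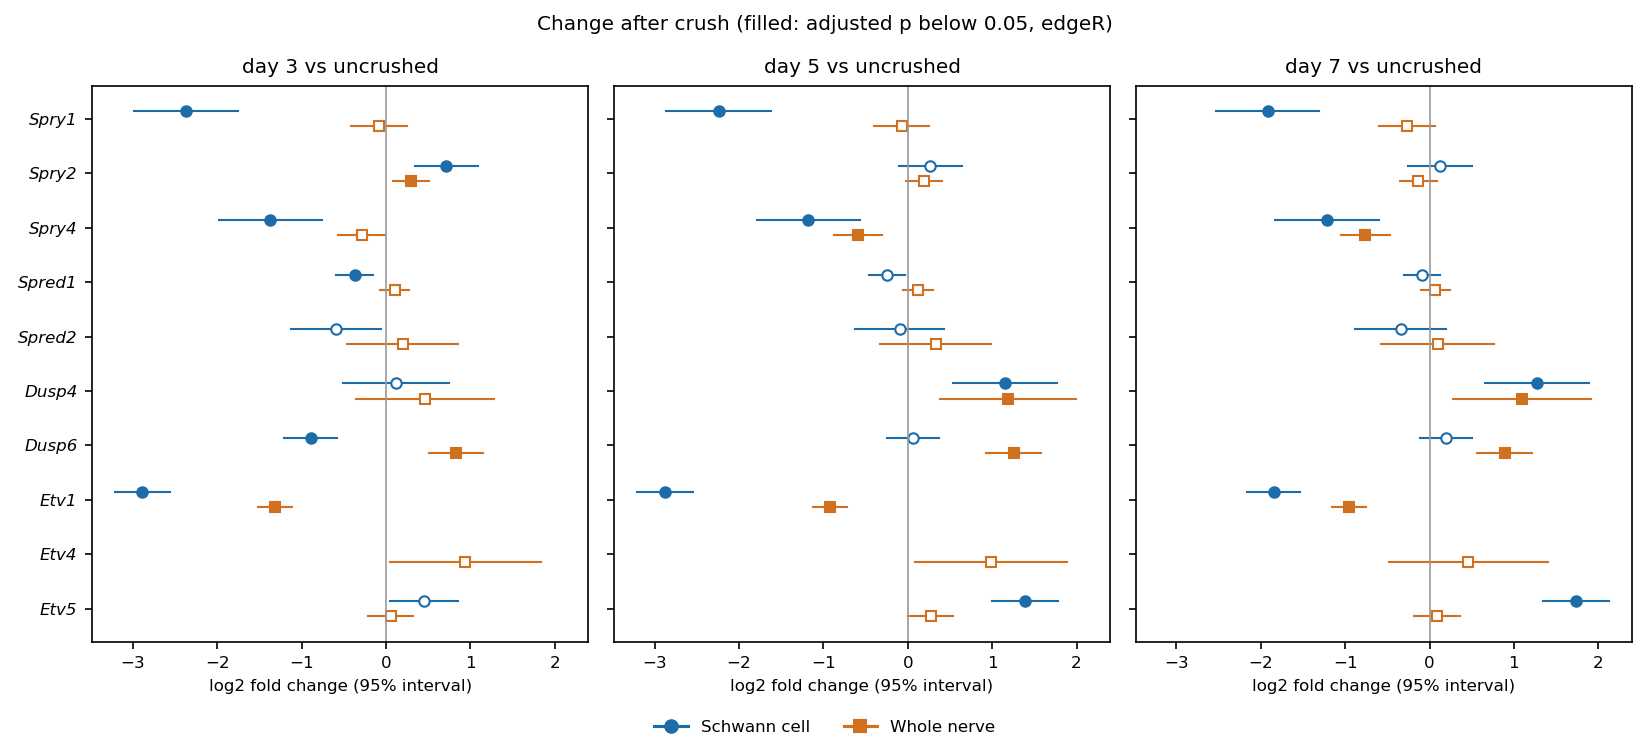
Log2 fold change against uncrushed (x axis, 95% interval as a line) of each member at 3 times, circles for Schwann cells and squares for whole nerve, filled where called by edgeR. At day 3 Dusp6 sits at -0.89 in Schwann cells and 0.83 in whole nerve, and Spry1 at -2.37 and -0.08; Etv4 has no Schwann cell point.

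Whether injury acted differently in the 2 preparations was tested directly, as the difference between the Schwann cell and the whole nerve fold change in a fit of all 16 libraries. It was called for 5 of 10 members on day 3, 5 of 10 on day 5 and 4 of 10 on day 7, against 26%, 27.5% and 26% of 16829 genes. The 5 calls on day 3 were all lower in Schwann cells, as were 13.7% of genes. Spry1, Dusp6 and Etv1 were called on all 3 days, always with the Schwann cell change the lower one.

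The Dusp6 difference was -1.82 ± 0.22 on the log2 scale on day 3 (adjusted p = 2.42e-05), where the opposite movements coincide, and -1.32 ± 0.21 and -0.81 ± 0.21 later, the last not called without the first day 7 Schwann cell library (adjusted p = 0.0584). For Spry1 it was -2.38 ± 0.27 on day 3, and for Etv1 -1.67 ± 0.17. For Etv5 the Schwann cell change was the higher one, by 1.00 ± 0.22 on day 5 and 1.53 ± 0.22 on day 7 (adjusted p = 0.00316 and 0.000126). Immediate-early genes moved in the same comparison: 12 of 16 had a lower Schwann cell change on day 3, 0 a higher one, and their median was -3.13 against -0.04 for all genes. Their share in the members' differences was not tested.

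Set against whole nerve at the same time, purified Schwann cells were rich in Spry2 and poor in Spry1, Spry4 and Etv5 at every time point. In uncrushed nerve 5 of 10 members were called (64.4% of genes). Spry2 at 143 to 171 CPM was 3.54-fold above the 41.8 to 46.85 CPM of whole nerve (log2 1.82 ± 0.16, adjusted p = 1.49e-07). Dusp6 was 1.83-fold above it. Spry4 was 2.94-fold, Spry1 1.82-fold and Etv5 4.43-fold below.

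Etv1 read 255 and 263 CPM in uncrushed Schwann cells and 272 and 296 in uncrushed whole nerve, with no call (log2 -0.13, 95% interval -0.39 to 0.13). Spred1 was not called either, with an interval of -0.21 to 0.15.

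After crush 8 of 10 members were called on day 3 (57.3% of genes), 8 of 10 on day 5 (51.7%) and 6 of 10 on day 7 (51%). The fitted difference was larger than in uncrushed nerve on all 3 days for Spry1, Spry4, Spred1, Etv1 and Etv4, smaller on all 3 for Spred2 and Etv5, and mixed for Spry2, Dusp4 and Dusp6. Of the 8, 7 were lower on each day, against 32.8% and 28.4% of genes. Spry1 was 9.50-fold below whole nerve on day 3, 8.94-fold on day 5 and 6.18-fold on day 7. Etv1, not called before injury, was 3.49-fold, 4.63-fold and 2.21-fold below. Etv5 closed in instead, 3.61-fold, 2.22-fold and 1.53-fold below.

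Spry2 kept its lead at log2 2.14 ± 0.15, 1.77 ± 0.15 and 1.96 ± 0.15. Dusp6 was called lower at days 3 and 5 (log2 -0.95 and -0.45) and not called on day 7 (0.06, 95% interval -0.26 to 0.38). The day 5 value lost its call with upper quartile scaling (log2 -0.31, adjusted p = 0.093) and without 2 of the 4 libraries. Spred1 was called lower on all 3 days (log2 -0.61, -0.52 and -0.30), on day 7 not with upper quartile scaling (adjusted p = 0.059) or without the first day 7 Schwann cell library (0.0741). That scaling moved the median gene of these comparisons by 0.14 on day 5 and 0.10 on day 7 (log2). Etv4 was lower at days 3 and 5 (adjusted p = 0.00628 and 0.00636), on Schwann cell counts of 0 to 10.

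**Figure D3:**
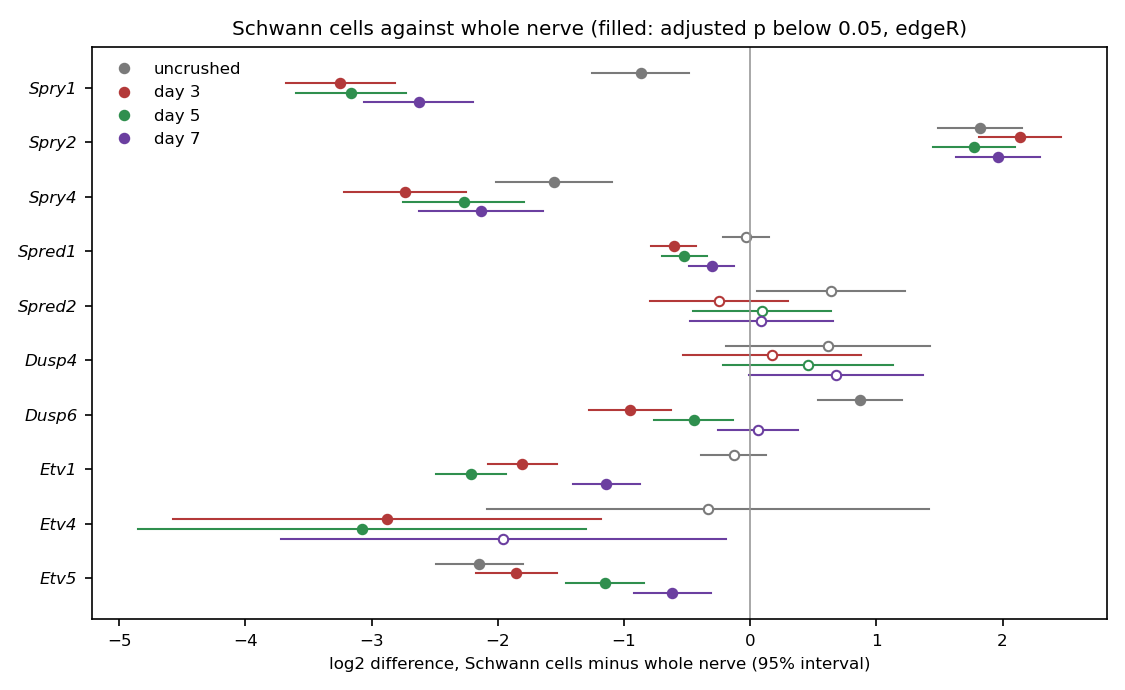
Log2 difference of Schwann cells minus whole nerve (x axis, 95% interval as a line) for each member at 4 time points, filled where called by edgeR. Spry2 lies near 2 throughout, Spry1 moves from -0.87 to -3.25 between uncrushed and day 3, and Etv5 from -2.15 to -0.62 between uncrushed and day 7.

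The rest of the pathway gives the setting for these genes, from lists drawn up with earlier results known. In Schwann cells on day 3, 8 of 18 genes of the ERK cascade core were called higher and 4 lower, with a median log2 fold change of 0.08, where 52.5% of all genes were called in either direction. At the extremes were Rps6ka1, an ERK-activated kinase, at 1.89 ± 0.14, and Mras, a Ras-family GTPase, at -4.22 ± 0.27. Of 20 adaptors, exchange factors and GTPase-activating proteins 8 were higher and 3 lower. Gab2, a docking protein, stood at 1.99 ± 0.14 and Nf1, the gene for neurofibromin and partner of the Spred proteins, at -1.16 ± 0.13.

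The counts of the lists that follow stand against the same 52.5%. The other Sprouty, Spred and Dusp genes were called higher in 3 and lower in 2 of 8 cases. Dusp1 of this list is also counted among the immediate-early genes. Dusp10, a phosphatase of the stress kinases p38 and JNK, was 17.7-fold higher, and Dusp8, with a similar substrate range, 2.92-fold lower. Among 12 other ETS factors 3 were higher and 3 lower, Elf4 at 2.42 ± 0.24 and Elf2 at -0.79 ± 0.13 being the extremes.

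Of 16 receptors 4 were higher and 5 lower. Met, the hepatocyte growth factor receptor, was 19.3-fold higher and Ntrk2, a neurotrophin receptor, 9.03-fold lower. Of 20 ligands 8 were higher and 5 lower, from Fgf5 at 6.46 ± 0.22 to Fgf1 at -4.11 ± 0.23, both fibroblast growth factors.

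The 10 genes of a list often used as ERK targets, of which Dusp5 is also among the Dusp genes counted above, were 3 higher and 5 lower in Schwann cells on day 3, with a median of -0.41. Ccnd1, the gene for cyclin D1, rose from 130 to 151 CPM to 1193 to 1270, the receptor gene Epha4 rose 12.6-fold and the AP-1 gene Fosl1 6.49-fold. Myc fell from 238.5 to 242 CPM to 31.4 to 36.0, and Phlda1, Errfi1, a feedback inhibitor of the EGF receptor, Epha2 and Il17rd, an inhibitor of fibroblast growth factor signaling, fell by 0.74 to 1.68 on the log2 scale.

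In whole nerve on day 3 the same 10 genes were higher in 7 and lower in 3 cases, with a median of 1.23, where 45.6% of all genes were called. Myc and Phlda1 rose there (log2 1.21 ± 0.25 and 1.49 ± 0.14) and fell in purified cells. Myc is itself a rapid-response gene, and its uncrushed level was 238.5 to 242 CPM in purified cells against 7.96 to 9.68 in whole nerve. Whether that level has a part in the Myc fall was not tested.

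Immediate-early genes had the most uniform direction. In Schwann cells 12 of 16 were called lower on day 3 and 0 higher (median -1.87), the called values running from Atf3 at -0.39 ± 0.13 to Ier2 at -3.81 ± 0.67. In whole nerve 7 of 16 were higher and 1 lower (median 0.82). Uncrushed Schwann cells exceeded uncrushed whole nerve in 16 of 16 (median 4.80). In Schwann cells 12 of 16 were again lower on days 5 and 7 (medians -1.45 and -1.30). Spry1, Spry4 and Etv1 were also called lower on both days and Dusp6 was not, and the part of the immediate-early genes in these values was not tested.

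**Figure D4:**
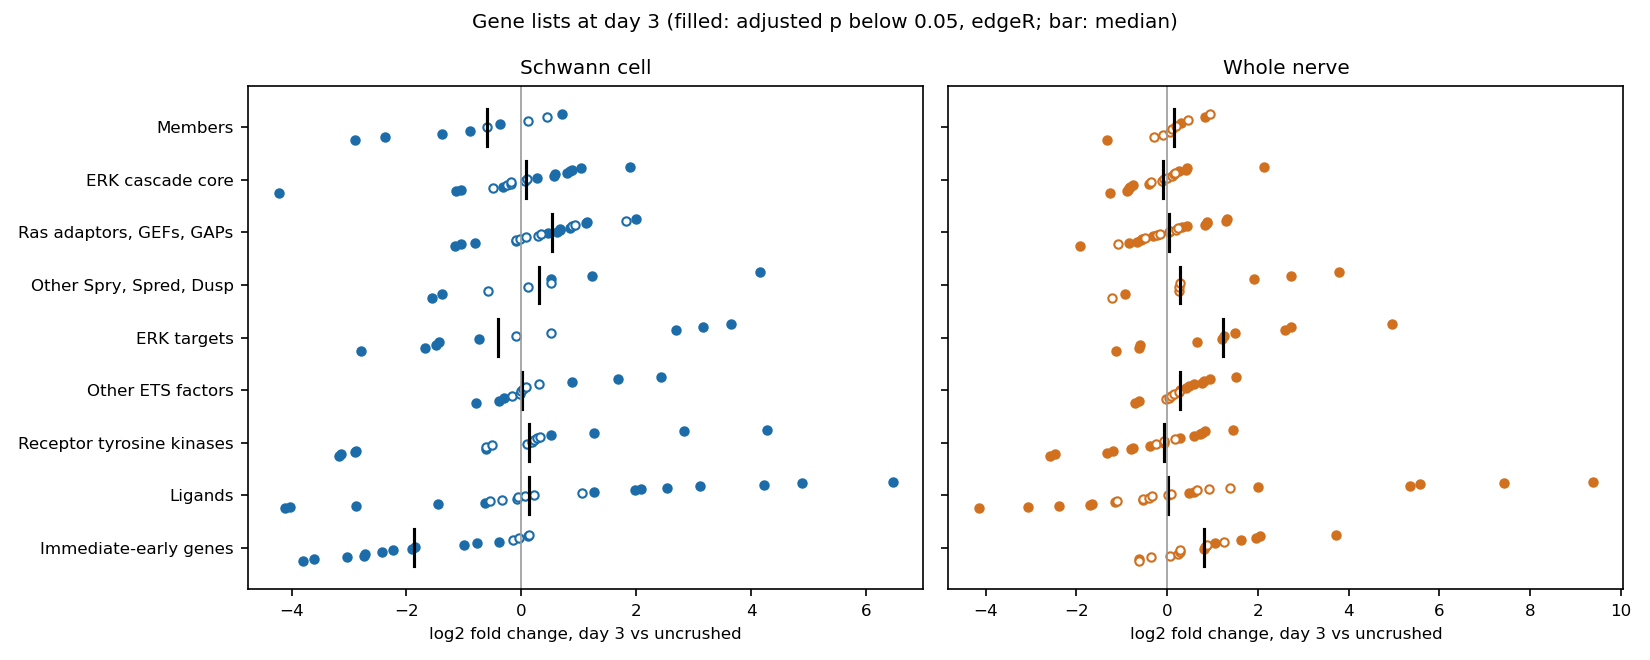
Log2 fold change on day 3 against uncrushed (x axis, a separate range for each panel) of the members and of 8 pathway lists, 1 point per gene tested, filled where called by edgeR, with the list median as a bar. Immediate-early genes have medians of -1.87 in Schwann cells and 0.82 in whole nerve, and the members -0.59 and 0.15.

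Over the 16 libraries, likeness was measured by Pearson's r of log2(FPKM + 1) among genes with a mean of at least 1 FPKM. The closest gene was Ackr3 for Spry1 (r = 0.987), Adamts1 for Spry2 (0.989), Vwf for Spry4 (0.987), Gypc for Etv1 (0.98) and Epb41 for Etv5 (0.971). Spred1 (Mitd1, 0.919), Dusp4 (Exosc9, 0.922), Dusp6 (Slc39a10, 0.91) and Spred2 (Gar1, 0.878) had looser matches, and Etv4 was below the minimum. The libraries share preparation and time point, so these values mostly describe the 8 groups. The median r over all member pairs was 0.33 over the 16 libraries and 0.22 within the 8 Schwann cell libraries. Within the latter it ran from -0.71 for Spry2 and Spred2 to 0.97 for Spry1 and Etv1.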

How the data were processed

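The submitters' processing notes and the study's methods name STAR, RSEM and the rat build Rnor_6.0. The deposited expected counts, FPKM and TPM of each library were estimated by the authors with RSEM, with no filter. The deposited module table also holds FPKM that the authors made with TopHat2 and Cufflinks for the 8 Schwann cell libraries. Amplified cDNA carried no molecular identifiers, so depth limits (10555067 to 27562637 counts) cover counting error only. Per-sample columns left unused numbered 0, and 0 library pairs held identical values.

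Expected counts were rounded and tested with edgeR 4.0.16 (TMM, filterByExpr, quasi-likelihood test, Benjamini-Hochberg over all genes) in R 4.3.3, in fits of the 8 Schwann cell, the 8 whole nerve and all 16 libraries. Each SE was derived from F as the size of the fold change over its root. Normalized CPM uses TMM factors of all 16 libraries, so it can differ slightly from the fold changes within a preparation. In simulated counts for Schwann cells at day 3 edgeR recovered 73 of 100 genes changed 2-fold and 97 of 100 changed 4-fold among 14544, and 20 of its 190 calls were false. For the difference of the day 3 injury effects between preparations it recovered 43 of 100 and 83 of 100 among 16111, with 10 of 136 calls false. Only 200 genes were changed in each simulation, as many up as down. In the Schwann cell data at day 3, 52.5% of genes were called, so these rates may not carry over to the data. Figures used matplotlib 3.10.9.

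Members and lists were chosen with earlier results of these data known. The rule for naming genes takes the 10 members, the ERK targets, the called extremes of each list in Schwann cells at day 3 and the closest genes by r. Replicate numbers showed no shared shift: deviations from group means correlated at -0.05 to 0.05 among Schwann cell and -0.06 to 0.08 among whole nerve groups. Whether libraries of the same number were prepared together is not given. Alternatives were DESeq2 1.42.0, upper quartile scaling, other count filters, other sets of libraries, a replicate block and leaving out each library. The Cufflinks comparison was added after the data had been seen. Of 9 Schwann cell markers 2 are not reported here.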

Additional observations from a re-analysis of the deposited data

Results flagged for a closer look

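Injury changed several members differently in purified Schwann cells and in whole nerve, by edgeR's test of the difference between the 2 fold changes. The sizes below are the Schwann cell log2 fold change minus that of whole nerve. Spry1, an inhibitor of receptor signaling, differed by -2.38 at day 3, -2.29 at day 5 and -1.76 at day 7. Etv1 differed by -1.67, -2.08 and -1.01, and the phosphatase gene Dusp6 by -1.82, -1.32 and -0.81. Without the first day 7 Schwann cell library the last of these was -0.66 (adjusted p = 0.0584). Spred1 differed by -0.57 at day 3 and -0.49 at day 5, and Spry4 by -1.18 at day 3, with no call on the later days. For Etv5 the Schwann cell value was the higher one, by 1.00 at day 5 and 1.53 at day 7. Purified cells went through digestion and panning and whole nerve did not, so cell type and preparation cannot be told apart in these values. The paper did compare whole nerve with dissociated nerve that had not been panned. It anticipated no significant changes from purification, immediate early genes apart, and reports that the comparison bore this out. That dissociated nerve is not among the 16 libraries used here.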

How the results depend on the processing

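Of 64 member values that changed sign under an alternative, 0 had been called (the largest was 0.34 on the log2 scale). Leaving out 1 library at a time gave 856 member values, of which 754 kept direction and side, and other alternatives gave 1175, of which 1130 did. Ranges without 1 library, as log2 against uncrushed, were in Schwann cells -0.30 to 0.38 for Dusp4 at day 3, -0.25 to 0.055 for Spred2 and -0.056 to 0.16 for Dusp6 at day 5, and -0.12 to 0.36 for Spry2 at day 7. In whole nerve they were -0.24 to 0.074 for Spry1, -0.019 to 0.42 for Spred2 and -0.086 to 0.20 for Etv5 at day 3, and -0.17 to 0.35 for Spred2 at day 7, and between uncrushed preparations -0.89 to 0.081 for Etv4. Upper quartile scaling gave -0.008 for Dusp6 at day 5 and 0.037 for Spred1 between uncrushed preparations, and a fit of all 16 libraries 0.024 for Spry1 in whole nerve at day 5. Member calls without 1 library ran from 1 to 3 (day 5 against 3), 0 to 1 (day 7 against 5) and 3 to 4 (day 7 against 3) in Schwann cells, and from 0 to 1 (day 5 against 3) and 0 to 2 (day 7 against 3) in whole nerve. In whole nerve DESeq2 called 2 and the unfiltered fit 2 at day 5 against 3 in place of 1, the unfiltered fit 1 at day 7 against 5 in place of 0, and the fit of all 16 libraries 1 at day 7 against 3 in place of 3. Over all genes, day 7 against 5 had 291 calls in Schwann cells, 512 with DESeq2, 1048 unfiltered, 472 with all 16 libraries and 441 with the 4 libraries compared, and 1172 in whole nerve against 2247 unfiltered. Without 1 library the gene counts of day 5 against 3, day 7 against 5 and day 7 against 3 were 541 to 737 (1863 with all), 31 to 123 and 1533 to 2182 (3140) in Schwann cells, and 510 to 652 (1828), 323 to 862 and 1635 to 2516 (3357) in whole nerve. The median r among members was 0.22 within Schwann cells and 0.64 within whole nerve. A replicate block, which the numbers do not justify as a pairing, took the Schwann cell count at day 7 against 5 to 179 and Dusp4 in whole nerve at day 7 to an adjusted p of 0.0522, and called Spred2 between uncrushed preparations (0.0419). The cause of these shifts was not tested.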

Other observations

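The Cufflinks FPKM of the module table lists 6 of the members, Spry1, Spry2, Spred1, Dusp6, Etv1 and Etv5, in each Schwann cell column. Its median gene among 6274 was higher by 0.68 on the log2 scale at day 3 than in uncrushed cells, against 0.26 for the RSEM FPKM of the same genes. Relative to these medians the members read as follows in the Cufflinks and RSEM tables at day 3: Spry1 at -2.60 and -2.70, Etv1 at -3.31 and -3.20, Dusp6 at -1.16 and -1.20, Spred1 at -0.42 and -0.42, Spry2 at 0.34 and 0.39 and Etv5 at 0.15 and 0.12. Without that centring Spred1 read 0.26 higher in Cufflinks on the log2 scale, against -0.17 in RSEM. At days 5 and 7 the tables were farther apart for Spry2, at -0.27 and -0.12 and at -0.45 and -0.19, and for Dusp6, at -0.46 and -0.33 and at -0.18 and -0.10. These centred values have the opposite sign to the tested log2 fold changes, 0.27 and 0.12 for Spry2 and 0.06 and 0.20 for Dusp6. Without centring, Cufflinks gave 0.80 and 0.375 for Spry2, 0.61 and 0.64 for Dusp6 and 0.78 and 0.72 for Spred1.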
